A study of Homo sapiens with 12 samples.

Results

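TGF-beta and BMP pathway genes were followed through PHF19 knockdown in triple-negative breast cancer cells. They are 46 named genes, namely ligands, ligand-binding and processing proteins, receptors, secreted antagonists, SMADs, intracellular inhibitors and target genes, found by symbol among the 29972 gene rows of each of 2 deposited tables, 1 per cell line. All 46 were found in both tables. Ligands of the TGF-beta superfamily are secreted as dimers and bind pairs of type I and type II serine/threonine kinase receptors. The TGF-beta and activin receptors phosphorylate SMAD2 and SMAD3, the BMP receptors SMAD1 and SMAD5, and each of these enters the nucleus with SMAD4 to bind target genes. In breast cancer cells the pathway is known for its part in epithelial-mesenchymal change, invasion and growth in bone.

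MDA-MB-436 is an established human triple-negative breast cancer line, and BoM-1833 is a bone-tropic derivative of another such line. Each was reverse transfected with siRNA at 5 nM in all and harvested 72 h later for stranded mRNA sequencing. The control groups, called siNT, received a pool of non-targeting siRNAs, and the treated groups, called siPHF19, an equal mixture of 2 siRNAs against PHF19, a Polycomb-like protein that joins the repressive complex PRC2. All cells were thus transfected and grew in medium with fetal calf serum, and the control pool and the PHF19 siRNAs were made by different suppliers. There were 4 groups of 3 libraries, hence 12 libraries, and 13.7 to 24.0 M reads per library fell in genes. The labels do not say that libraries of a group came from separate cultures, so p-values measure the spread between these libraries, which may be technical. Because the mixture of siRNAs was the only treatment, the response to each siRNA cannot be told apart.

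PHF19 was low in all 6 siPHF19 libraries. In MDA-MB-436 its normalized counts, which are reads divided by a size factor per library, were 2942, 3354 and 3763 in the siNT libraries and 340.1, 326 and 315 in the siPHF19 libraries, and 9.75% of the siNT mean remained. In BoM-1833 they were 1711, 1684 and 1669 against 180.8, 200.5 and 173, and 10.9% remained. Markers of the lines were checked in the same way. The estrogen and progesterone receptor genes ESR1 and PGR had normalized counts of at most 3.97 in any library, while ERBB2 was present, at means of 1056 in siNT MDA-MB-436 and 1041 in siNT BoM-1833 libraries. VIM, CD44, AXL and ZEB1, which mark mesenchymal-type lines, were expressed in both lines, and CDH1, the epithelial cadherin, had at most 3.10 normalized counts in MDA-MB-436 libraries and 4.61 to 27.6 in those of BoM-1833. Of the markers of other cell types, the fibroblast genes DCN and LUM, the T cell gene CD3E and the endothelial gene CDH5 had at most 3.97 normalized counts in any library. PTPRC, the leukocyte common antigen, had at most 1.09 in MDA-MB-436 libraries and 14.9 to 21.2 in those of BoM-1833. The endothelial gene PECAM1 had 13.1 to 34.9 in MDA-MB-436 libraries, 280.2 to 404 in those of BoM-1833, and was called in neither line. VWF and PDGFRA, of endothelial cells and fibroblasts, were too low to be tested in either line. CD68, a lysosomal protein abundant in macrophages, was present in both lines and fell in MDA-MB-436, with 746, 708 and 807 against 583, 619 and 558 normalized counts and a log2 fold change of -0.36 ± 0.099 (SE) in the authors' deposited table (DESeq2 adjusted p = 0.00277). KRT8 and KRT18, keratins of epithelial cells, rose in both lines, with KRT8 at log2 fold changes of 0.69 in MDA-MB-436 cells and 0.70 in BoM-1833 cells in the authors' deposited tables (DESeq2 adjusted p = 3.17e-14 and 2.94e-36). Of 4 epithelial markers these 2 were called higher in each line, CDH1 was not tested and EPCAM was not called. Among the mesenchymal markers CD44 fell and AXL rose in MDA-MB-436, and VIM and ZEB1 fell in BoM-1833. The part of these marker changes in the results was not tested. In bulk RNA, fewer cells of a type and less RNA per cell cannot be told apart.

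Of the 46 genes, some rose and others fell in each line, with more calls in MDA-MB-436. A gene was called where the adjusted p of the authors' DESeq2 Wald test was under 0.05, and genes without an adjusted p were not tested. In MDA-MB-436, 43 of the 46 genes were tested and 16 of them (37.2%) were called, against 22.1% of all genes tested. Of these, 9 were higher, against 10.5% of all genes, and 7 were lower, against 11.5%. In BoM-1833, 41 were tested and 11 (26.8%) were called, against 10.9% of all genes. There 8 were higher, against 5.21% of all genes, and 3 were lower, against 5.72%. With single libraries left out, the higher genes in MDA-MB-436 numbered 4, 5, 4 and 5 without siNT 2 and without siPHF19 1, 2 and 3, and the lower genes 4 without siPHF19 3. In BoM-1833 the lower genes numbered 1 without siNT 2, siPHF19 1 or siPHF19 2 and 2 without siNT 3 or siPHF19 3, and the higher genes 7 or 8. The libraries farthest from their group were siNT 1 and siNT 3 of MDA-MB-436 and siNT 1 of BoM-1833. Without each of them 14, 12 and 11 of the 46 genes were called in their line, against 20.3%, 26.9% and 17.0% of all genes. The count without siNT 3 of MDA-MB-436 thus lies near the share of all genes. Without siNT 2 or siPHF19 1, 2 or 3 of MDA-MB-436 the count there was 9, 10, 9 and 9. Of all genes 13.3%, 12.9%, 13.0% and 13.8% were then called. The median log2 fold change of the genes tested was 0.070 in MDA-MB-436 cells and 0.060 in BoM-1833 cells in the authors' deposited tables, where all genes tested had medians of -0.0022 and -0.0035.

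The 16 genes called in MDA-MB-436 belonged to all 7 roles and the 11 in BoM-1833 to 5 of them, without receptors and target genes. Called in at least 1 line were 24 genes, in MDA-MB-436 alone 13 and in BoM-1833 alone 8. TGFB2, BMP1 and FSTL1 were called in both lines, all 3 higher. Among all genes with a test in each line 5.67% were called in both with the same sign, so that 3 of 38 lies near the background. A call in a single line does not show that the lines differ, and of the 38 genes tested in both lines 5 differed between them in a z test of the log2 fold changes, against 4.89% of all genes. These were TGFB1, FST, FSTL1, FSTL3 and PMEPA1.

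**Figure D1:**
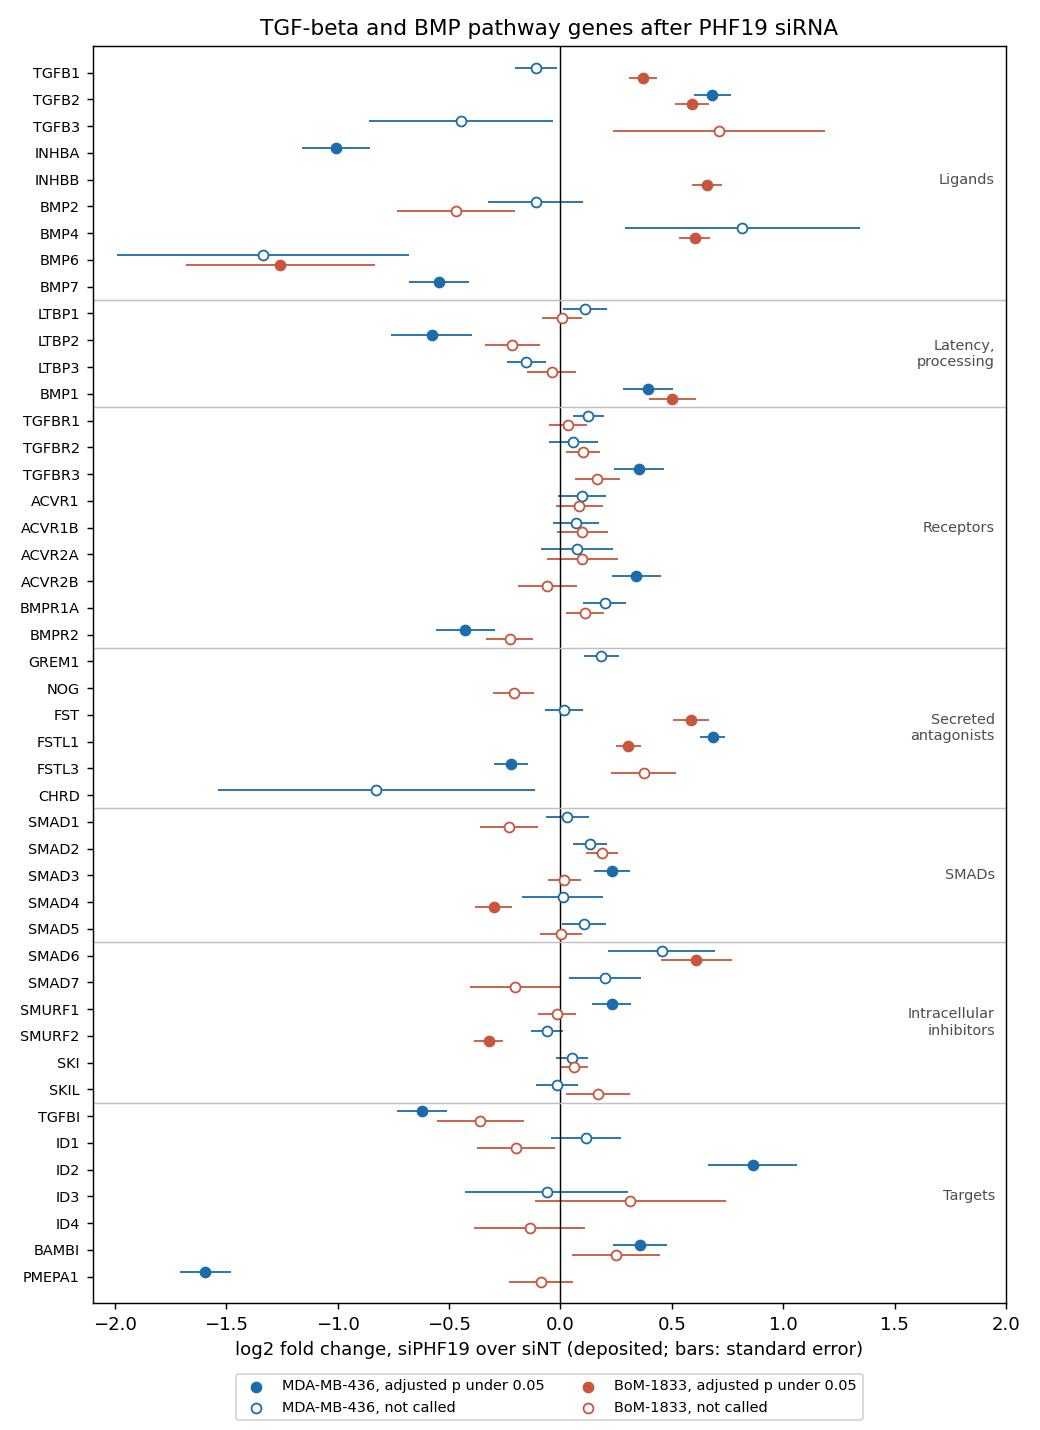
Log2 fold change of siPHF19 over siNT (horizontal axis, deposited values, bars are standard errors) for each of the 46 genes by role, in MDA-MB-436 (blue) and BoM-1833 (red). Filled points have a DESeq2 adjusted p under 0.05, and genes with no point were not tested in that line. PMEPA1 and INHBA lie farthest to the left among the filled blue points, and the filled red points lie mostly to the right of 0.

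Among the ligands, TGFB2, which encodes a TGF-beta isoform, rose in both lines. In MDA-MB-436 its normalized counts were 1790.1, 1886 and 1662 in siNT and 2859, 2677 and 3037 in siPHF19 libraries. All 3 siPHF19 libraries lay above all 3 siNT libraries, a 1.61-fold higher mean, with a log2 fold change of 0.68 ± 0.082 (SE) in the authors' deposited table (DESeq2 adjusted p = 8.99e-15). In BoM-1833 the counts were 1588, 1816 and 1602 against 2371, 2513 and 2650.01, again without overlap. A log2 fold change of 0.59 ± 0.076 (SE) was listed in the authors' deposited table (DESeq2 adjusted p = 1.69e-12), and the z test between lines gave a difference of 0.092 (adjusted p = 0.762). TGFB2 lies on the plus strand at chr1:218346235-218444619 in GRCh38 (GENCODE v29).

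TGFB1, the isoform most cells make, rose in BoM-1833. Its normalized counts there were 2804, 2595 and 2777 in siNT and 3602, 3445 and 3510.1 in siPHF19 libraries, without overlap, with a log2 fold change of 0.37 ± 0.062 (SE) in the authors' deposited table (DESeq2 adjusted p = 2.24e-07). In MDA-MB-436 the siNT libraries had 988, 999.8 and 1036 and the siPHF19 libraries 844, 1009.7 and 942. Those groups overlapped, and the log2 fold change was -0.11 ± 0.093 (SE) in the authors' deposited table (DESeq2 adjusted p = 0.438). The difference between lines, MDA-MB-436 minus BoM-1833, was -0.48 (z test, adjusted p = 0.00118). TGFB3 was scarce in both lines, at 9.54 to 28.8 normalized counts over all libraries, and was called in neither (log2 fold changes of -0.45 and 0.71 in the authors' deposited tables).

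The activin subunit genes were each expressed in a different line and moved in opposite directions. INHBA, whose product dimerizes to activin A, fell in MDA-MB-436. Its normalized counts were 314, 254 and 289 in siNT and 145, 141 and 139 in siPHF19 libraries, so that the highest siPHF19 library lay below the lowest siNT library. INHBA had a log2 fold change of -1.01 ± 0.15 (SE) in the authors' deposited table (DESeq2 adjusted p = 1.3e-09). In BoM-1833 INHBA had 5.96 to 12.9 normalized counts per library and was not tested.

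INHBB, the subunit of activin B, rose in BoM-1833. The normalized counts were 1582, 1690.4 and 1729.6 in siNT and 2590.5, 2673 and 2619 in siPHF19 libraries, with little spread and no overlap. INHBB had a log2 fold change of 0.66 ± 0.067 (SE) in the authors' deposited table (DESeq2 adjusted p = 4.95e-20). MDA-MB-436 libraries had at most 2.45 normalized counts of INHBB, and the gene was not tested there. Since neither subunit gene was tested in both lines, no difference between lines was tested for them.

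The bases just upstream of a RefSeq start site of TGFB2 and FSTL1, which rose in both lines, and of the activin subunit genes show how unlike these promoters are. The sequences are from RefSeq on GRCh38.p14 and run 5′ to 3′ on the strand of the gene, 250 bases up to the 1 start site that RefSeq lists for each. That site lies upstream of the GENCODE v29 span for TGFB2, just upstream of it for INHBB, and inside it for FSTL1 and INHBA. These windows thus depend on the annotation. Capitals mark CAGAC, known as the SMAD box, GGCGCC, a GC-rich motif that SMADs can bind, or TGANTCA, the AP-1 motif, each searched on both strands. The windows are at chr1:218345086-218345335 on the plus strand, chr3:120450993-120451242 on the minus strand, chr2:120345886-120346135 on the plus strand and chr7:41703091-41703340 on the minus strand.
TGFB2: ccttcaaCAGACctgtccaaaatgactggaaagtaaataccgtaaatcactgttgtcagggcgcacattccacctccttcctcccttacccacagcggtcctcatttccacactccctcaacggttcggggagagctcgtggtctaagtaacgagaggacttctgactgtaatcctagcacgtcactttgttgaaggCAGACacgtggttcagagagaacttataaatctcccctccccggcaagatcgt
FSTL1: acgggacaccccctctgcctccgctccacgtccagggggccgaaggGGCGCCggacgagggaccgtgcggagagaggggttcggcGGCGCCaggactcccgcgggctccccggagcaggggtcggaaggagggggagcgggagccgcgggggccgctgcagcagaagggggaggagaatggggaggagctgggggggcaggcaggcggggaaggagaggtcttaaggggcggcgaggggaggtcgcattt
INHBB: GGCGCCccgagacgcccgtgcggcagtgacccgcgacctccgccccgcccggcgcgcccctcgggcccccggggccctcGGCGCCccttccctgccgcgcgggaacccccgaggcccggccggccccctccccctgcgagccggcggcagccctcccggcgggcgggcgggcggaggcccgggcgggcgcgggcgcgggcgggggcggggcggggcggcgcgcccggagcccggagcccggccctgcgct
INHBA: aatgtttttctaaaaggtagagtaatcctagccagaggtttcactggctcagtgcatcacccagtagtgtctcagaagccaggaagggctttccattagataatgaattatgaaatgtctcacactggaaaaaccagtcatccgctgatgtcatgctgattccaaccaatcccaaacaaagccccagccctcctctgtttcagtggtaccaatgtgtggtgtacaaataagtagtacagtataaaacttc
TGFB2 holds 2 copies of CAGAC, beginning 243 and 53 bases before the start, and 11 CG dinucleotides. FSTL1 holds 2 copies of GGCGCC, 204 and 165 bases before the start, and 24 CG dinucleotides. INHBB holds 2 copies of GGCGCC, at 250 and 171 bases, and 46 CG dinucleotides, whereas INHBA holds none of the 3 motifs and 1 CG dinucleotide. Of the 46 genes 41 matched a RefSeq promoter. The first listed window of these 41 had a median of 25 CG dinucleotides, against 11 over 27305 genes, and held GGCGCC in 41.5%, against 16.1% of all genes. CAGAC was in 34.1% of the 41 and 37.8% of all genes, and TGANTCA in 4.88% and 6.60%. The 27305 genes were not limited to expressed ones. GGCGCC itself contains CG, and its shares were not adjusted for CG content. The median number of CG dinucleotides was 26 in 13 genes called higher, 25 in 9 called lower and 24 in 19 called in neither line. These matches describe letters in a window and not sites of binding.

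The 4 BMP ligands among the 46 genes, which signal through SMAD1 and SMAD5, gave 1 call in MDA-MB-436 and a pair of calls in BoM-1833. Of all genes 22.1% and 10.9% were called in these lines. BMP4 rose in BoM-1833, from 1644, 1662 and 1832 normalized counts in siNT to 2522, 2605 and 2669 in siPHF19 libraries. The groups did not overlap, and the log2 fold change was 0.60 ± 0.07 (SE) in the authors' deposited table (DESeq2 adjusted p = 1.5e-15). In MDA-MB-436 BMP4 had 6.20 to 20.7 normalized counts and was not called. BMP7 fell in MDA-MB-436, with 325, 313 and 281 normalized counts in siNT and 215, 202 and 215 in siPHF19 libraries. Those groups did not overlap either, and the log2 fold change was -0.54 ± 0.13 (SE) in the authors' deposited table (DESeq2 adjusted p = 0.000521). BoM-1833 libraries had at most 0.954 normalized counts of BMP7.

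BMP6, a ligand known from iron regulation and bone, was scarce and fell in BoM-1833. Its normalized counts were 33.3, 32.3 and 38.2 in siNT and 15.89, 15.33 and 12.01 in siPHF19 libraries, with a log2 fold change of -1.26 ± 0.42 (SE) in the authors' deposited table (DESeq2 adjusted p = 0.0315). The call was lost without siPHF19 library 1, 2 or 3 (DESeq2 adjusted p from 0.101 to 0.18). Without siNT library 1, 2 or 3 BMP6 had no adjusted p and was not called either. The call thus needed every library of the line. In MDA-MB-436 the counts were 16.37, 12.4 and 11.01 against 4.36, 4.14 and 7.39, also without overlap, and the gene was not called by DESeq2 (adjusted p = 0.136) but by edgeR (adjusted p = 0.0367). BMP2 was called in neither line, with log2 fold changes of -0.11 in MDA-MB-436 cells and -0.47 in BoM-1833 cells in the authors' deposited tables.

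Of the 4 genes for ligand latency and processing, the protease gene BMP1 rose in both lines. BMP1 encodes a secreted metalloproteinase that cleaves procollagens and the BMP antagonist chordin, and it is no member of the BMP ligand family. In MDA-MB-436 the normalized counts were 634, 794 and 843 in siNT and 978, 1001 and 1003 in siPHF19 libraries. The siPHF19 libraries were close together and all above the siNT libraries, with a log2 fold change of 0.39 ± 0.11 (SE) in the authors' deposited table (DESeq2 adjusted p = 0.00328). In BoM-1833 they were 378, 435 and 458 against 596, 604 and 598, again without overlap. The log2 fold change there was 0.50 ± 0.11 (SE) in the authors' deposited table (DESeq2 adjusted p = 8.05e-05).

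LTBP2, an extracellular matrix protein of the latent TGF-beta binding protein family, fell in MDA-MB-436. The normalized counts were 153, 166 and 194 in siNT and 124, 116 and 102 in siPHF19 libraries, without overlap. LTBP2 had a log2 fold change of -0.58 ± 0.18 (SE) in the authors' deposited table (DESeq2 adjusted p = 0.00902). The call was lost without siNT library 2 or 3 or siPHF19 library 2 or 3 (DESeq2 adjusted p from 0.0701 to 0.104). In BoM-1833 LTBP2 had 487, 581 and 638 normalized counts in siNT and 552, 436 and 476 in siPHF19 libraries, which overlapped, and it was not called. LTBP1 and LTBP3, which tether latent TGF-beta to the matrix, were called in neither line, with log2 fold changes from -0.15 to 0.11 over both lines in the authors' deposited tables.

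**Figure D2:**
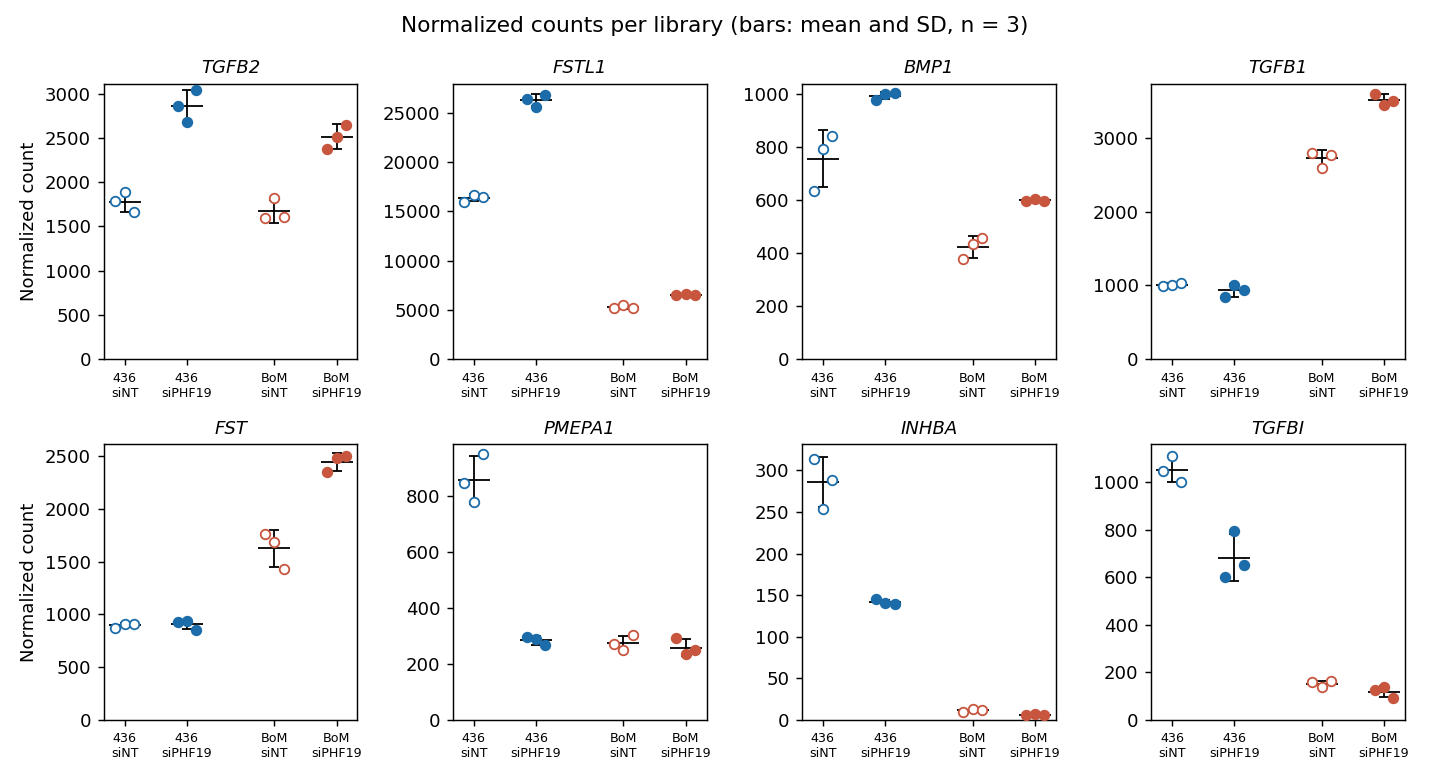
Normalized counts (vertical axis, from 0) of 8 genes in every library of MDA-MB-436 (436, blue) and BoM-1833 (BoM, red), with open points for siNT, filled points for siPHF19, and the mean and SD of 3 libraries in black. TGFB2, FSTL1 and BMP1 are higher after siPHF19 in both lines, TGFB1 and FST in BoM-1833, and PMEPA1, INHBA and TGFBI are lower in MDA-MB-436.

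All 9 receptor genes were tested in both lines. In MDA-MB-436 3 of them (33.3%) were called, against 22.1% of all genes. In BoM-1833 0 of 9 were called by DESeq2, which lies near the 10.9% of all genes. There log2 fold changes ran from -0.23 for BMPR2 to 0.17 for TGFBR3 in the authors' deposited table and 1, BMPR2, had an unadjusted DESeq2 p under 0.05. edgeR and limma also called 0 receptor genes in BoM-1833. TGFBR1 and TGFBR2, the type I and type II receptors of TGF-beta, were called in neither line. TGFBR2 had normalized counts of 2592, 3108 and 3603 in siNT and 3323, 3331 and 3024 in siPHF19 MDA-MB-436 libraries, so that the siNT libraries spanned the siPHF19 libraries.

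TGFBR3, or betaglycan, a co-receptor that presents TGF-beta2, rose in MDA-MB-436. Its normalized counts were 362, 349 and 397 in siNT and 491, 481 and 439 in siPHF19 libraries, without overlap, with a log2 fold change of 0.35 ± 0.11 (SE) in the authors' deposited table (DESeq2 adjusted p = 0.0123). ACVR2B, a type II activin receptor, rose there too. It had 346, 364 and 336 against 457, 431 and 440.4 normalized counts, also without overlap, and a log2 fold change of 0.34 ± 0.11 (SE) in the authors' deposited table (DESeq2 adjusted p = 0.0127). BMPR2, the type II receptor of BMPs, fell in MDA-MB-436. It had 724, 857 and 1060.3 normalized counts in siNT and 641, 694 and 625 in siPHF19 libraries, with a log2 fold change of -0.43 ± 0.13 (SE) in the authors' deposited table (DESeq2 adjusted p = 0.00857). The siNT libraries of BMPR2 were widely spread, and the lowest lay just above the highest siPHF19 library.

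Each of these 3 receptor calls was lost when certain libraries were left out. TGFBR3 was not called without siNT library 2 or siPHF19 library 1 or 2 (DESeq2 adjusted p from 0.141 to 0.168), and ACVR2B was not called when any library other than siNT library 1 was left out (from 0.0504 to 0.146). BMPR2 was not called without siNT library 3 or siPHF19 library 1 or 3 (from 0.0508 to 0.064). Conversely, BMPR2 was called lower in BoM-1833 once siNT library 1 was left out, at a log2 fold change of -0.36 (DESeq2 adjusted p = 0.000107). With all libraries BMPR2 had 1246, 1606 and 1756 against 1392, 1223 and 1315 normalized counts in BoM-1833, and siNT library 1 was the lowest of its group. In the same line TGFBR3 had 881, 1100.2 and 1195 against 1235, 1181 and 1141 normalized counts. ACVR2B had 303, 315 and 344 against 347, 283 and 292 there, and for both genes the groups overlapped. The other 6 receptor genes, TGFBR1, TGFBR2, ACVR1, ACVR1B, ACVR2A and BMPR1A, had log2 fold changes from 0.057 to 0.20 in MDA-MB-436 cells in the authors' deposited table.

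Secreted antagonists and binding proteins gave 3 of the 5 differences between lines. These were FSTL1, FST and FSTL3, the only genes of this role tested in both lines. GREM1 and CHRD were not tested in BoM-1833, and NOG was not tested in MDA-MB-436. FSTL1, a secreted glycoprotein of the follistatin family that binds BMP ligands, rose in both lines and more in MDA-MB-436. Its normalized counts there were 15972, 16654 and 16478 in siNT and 26429.8, 25634 and 26794 in siPHF19 libraries. The groups lay far apart, a 1.61-fold higher mean, with a log2 fold change of 0.68 ± 0.055 (SE) in the authors' deposited table (DESeq2 adjusted p = 6.72e-33). In BoM-1833 the counts were 5179, 5525 and 5217 against 6470.2, 6632 and 6543, also without overlap. The fold was smaller, 1.23, with a log2 fold change of 0.30 ± 0.056 (SE) in the authors' deposited table (DESeq2 adjusted p = 2.84e-06). The difference between lines was 0.38 (z test, adjusted p = 0.000124). FSTL1, whose promoter is printed above, lies on the minus strand at chr3:120392293-120451253.

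FST, or follistatin, which binds activins tightly, rose in BoM-1833 and was not called in MDA-MB-436. Its BoM-1833 normalized counts were 1759.9, 1686 and 1430.02 in siNT and 2348, 2479 and 2503 in siPHF19 libraries, without overlap, with a log2 fold change of 0.59 ± 0.081 (SE) in the authors' deposited table (DESeq2 adjusted p = 5.99e-11). In MDA-MB-436 they were 872, 911 and 907 against 928, 935 and 854, and the groups overlapped. The log2 fold change there was 0.014 ± 0.085 (SE) in the authors' deposited table (DESeq2 adjusted p = 0.931), and the difference between lines was -0.57 (z test, adjusted p = 0.000118).

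FSTL3, another activin-binding protein, fell in MDA-MB-436. The normalized counts were 1505, 1429 and 1406 in siNT and 1288, 1208 and 1229 in siPHF19 libraries, a small change without overlap and a log2 fold change of -0.22 ± 0.077 (SE) in the authors' deposited table (DESeq2 adjusted p = 0.0219). In BoM-1833 they were 199, 179 and 188 against 236, 264 and 234, with every siPHF19 library above the siNT libraries. The log2 fold change there was 0.37 ± 0.15 (SE) in the authors' deposited table and was not called (DESeq2 adjusted p = 0.0808), although edgeR and limma called it at adjusted p from 0.0309 to 0.0346. The difference between lines was -0.60 (z test, adjusted p = 0.0107). The fall in FSTL3 was not called when any MDA-MB-436 library other than siNT library 3 was left out (DESeq2 adjusted p from 0.0632 to 0.232). Its difference between lines was lost without siPHF19 library 2 of MDA-MB-436, siNT library 2 or 3 of BoM-1833 or siPHF19 library 2 of BoM-1833 (z test, adjusted p from 0.051 to 0.121).

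The BMP antagonists GREM1, NOG and CHRD were called in neither line. GREM1, or gremlin, had 2748, 2911 and 2878 normalized counts in siNT and 3187, 3518 and 2989.9 in siPHF19 MDA-MB-436 libraries, with a log2 fold change of 0.18 ± 0.08 (SE) in the authors' deposited table (DESeq2 adjusted p = 0.0816). At most 1.20 normalized counts of it were found in BoM-1833. NOG, or noggin, was the converse, with 1441, 1241 and 1167 normalized counts in siNT and 1067, 1082 and 1182 in siPHF19 BoM-1833 libraries, which overlapped. In MDA-MB-436 it had at most 3.67. CHRD, or chordin, was scarce, with 3.17 to 17.1 normalized counts in MDA-MB-436 and at most 2.98 in BoM-1833.

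Among the 5 SMADs that carry the signal, all of them tested in either line, each line had 1 call (20%). For MDA-MB-436 this lies near the 22.1% of all genes. The share of all genes was 10.9% for BoM-1833, where 1 call of 5 does not show an excess. SMAD3, which transmits TGF-beta and activin signals, rose in MDA-MB-436, from 2828, 3069 and 3385 normalized counts in siNT to 3745, 3547 and 3608 in siPHF19 libraries. The groups did not overlap, and the log2 fold change was 0.23 ± 0.081 (SE) in the authors' deposited table (DESeq2 adjusted p = 0.0228). SMAD4, the common partner of both branches, fell in BoM-1833. It had 987, 1108 and 1044 normalized counts in siNT and 847, 835 and 865 in siPHF19 libraries, with a log2 fold change of -0.30 ± 0.084 (SE) in the authors' deposited table (DESeq2 adjusted p = 0.00555). In MDA-MB-436 SMAD4 was at 134, 141 and 113 against 141, 133 and 118, which overlapped.

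The SMAD3 call was lost without siNT library 2 or siPHF19 library 1, 2 or 3 (DESeq2 adjusted p from 0.0992 to 0.183), and the SMAD4 call without siNT library 2 or siPHF19 library 1 or 2 (from 0.0534 to 0.102). In BoM-1833 SMAD3 had 2162, 2391 and 2524 normalized counts in siNT and 2471, 2279 and 2407 in siPHF19 libraries, which overlapped. SMAD1, SMAD2 and SMAD5 were called in neither line. SMAD1 and SMAD5, the BMP-branch SMADs, had log2 fold changes from -0.23 to 0.11 over both lines in the authors' deposited tables. SMAD2 had log2 fold changes of 0.13 in MDA-MB-436 cells and 0.19 in BoM-1833 cells in the authors' deposited tables, and limma called the latter (adjusted p = 0.0496).

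Of 6 intracellular inhibitors, SMURF1 was called in MDA-MB-436 (16.7%, against 22.1% of all genes) and SMAD6 and SMURF2 in BoM-1833 (33.3%, against 10.9%). SMAD6, an inhibitory SMAD of the BMP branch, rose in BoM-1833, from 185, 136 and 171 normalized counts in siNT to 259, 230.00 and 261 in siPHF19 libraries. The groups did not overlap, and the log2 fold change was 0.61 ± 0.16 (SE) in the authors' deposited table (DESeq2 adjusted p = 0.00258). In MDA-MB-436 SMAD6 had 61.1, 71.3 and 66.0 against 101, 71.2 and 101, which overlapped. SMURF2, a ubiquitin ligase for SMADs and receptors, fell in BoM-1833. It had 4813, 5489 and 5285 normalized counts in siNT and 4145, 4101 and 4212 in siPHF19 libraries, the latter close together and below the former, with a log2 fold change of -0.32 ± 0.064 (SE) in the authors' deposited table (DESeq2 adjusted p = 1.8e-05). In MDA-MB-436 SMURF2 had 2457, 2542 and 2733 against 2542, 2447 and 2431 normalized counts, which overlapped, and a log2 fold change of -0.059 ± 0.072 (SE) in the authors' deposited table (DESeq2 adjusted p = 0.616).

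SMURF1, the related ligase, rose in MDA-MB-436, from 1674, 1779 and 2048 normalized counts in siNT to 2158, 2170.1 and 2118 in siPHF19 libraries, with a log2 fold change of 0.23 ± 0.088 (SE) in the authors' deposited table (DESeq2 adjusted p = 0.0417). This was the call nearest the threshold, and it was lost under limma (adjusted p = 0.0513), under DESeq2 without independent filtering (adjusted p = 0.0578) and when any library other than siNT library 3 was left out (DESeq2 adjusted p from 0.0903 to 0.235). SMURF1 had 1037, 1126 and 1171 against 1176, 1029.7 and 1084 normalized counts in BoM-1833, which overlapped. Without siNT library 2 or siPHF19 library 3 of BoM-1833 the SMAD6 call was lost (from 0.0514 to 0.0721). In the z test SMURF1 differed between lines without siNT library 3 of MDA-MB-436 (adjusted p = 0.0435) and SMURF2 without that library or siNT library 1 of BoM-1833 (adjusted p from 0.00656 to 0.0214), while with all libraries neither did (adjusted p = 0.291 and 0.0926). An interaction term in 1 DESeq2 fit over all 12 libraries did call SMURF2 (adjusted p = 0.0383). SMAD7, SKI and SKIL were called in neither line, with log2 fold changes from -0.20 to 0.20 over both lines in the authors' deposited tables.

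Of the target genes among the 46, 4 of 6 tested (66.7%) were called in MDA-MB-436, against 22.1% of all genes. In BoM-1833 0 of 6 were called by DESeq2, which lies near the 10.9% of all genes. The z test between lines called PMEPA1 alone among the 5 target genes tested in both. In BoM-1833 edgeR and limma also called 0, and an unadjusted DESeq2 p was under 0.05 in 0 of the 6. PMEPA1, a TGF-beta-induced membrane protein that binds SMAD2 and SMAD3 and limits their signal, had the largest change of the 46 genes among those tested. In MDA-MB-436 its normalized counts were 845, 777 and 947 in siNT and 297, 287 and 265 in siPHF19 libraries. The groups lay far apart, a 3.03-fold lower mean after siPHF19, with a log2 fold change of -1.59 ± 0.12 (SE) in the authors' deposited table (DESeq2 adjusted p = 6.82e-41). In BoM-1833 they were 271, 249.9 and 301 against 291, 234 and 247, overlapping and at about the level of the siPHF19 MDA-MB-436 libraries, although the tables were normalized separately. The log2 fold change there was -0.088 ± 0.14 (SE) in the authors' deposited table (DESeq2 adjusted p = 0.813), and the difference between lines was -1.51 (z test, adjusted p = 2.33e-13). PMEPA1 lies on the minus strand at chr20:57648392-57711536, where the annotation has the noncoding gene NKILA on the opposite strand.

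TGFBI, a matrix protein named for its induction by TGF-beta, fell in MDA-MB-436 as well. Its normalized counts were 1048, 1108 and 1002 in siNT and 603, 793 and 653 in siPHF19 libraries, without overlap, with a log2 fold change of -0.62 ± 0.11 (SE) in the authors' deposited table (DESeq2 adjusted p = 8.71e-07). In BoM-1833 it had 157.2, 138.3 and 161.2 against 126.1, 138 and 91.3 normalized counts, and the highest siPHF19 library lay just below the lowest siNT library. There the log2 fold change was -0.36 ± 0.19 (SE) in the authors' deposited table (DESeq2 adjusted p = 0.273), and the z test between lines gave an adjusted p of 0.626.

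ID2 and BAMBI rose in MDA-MB-436. ID2, an inhibitor of basic helix-loop-helix factors that BMPs induce, had 67.7, 71.3 and 81.9 normalized counts in siNT and 125, 143 and 131 in siPHF19 libraries. The groups did not overlap, and the log2 fold change was 0.86 ± 0.20 (SE) in the authors' deposited table (DESeq2 adjusted p = 0.000215). BAMBI, a pseudoreceptor that blocks TGF-beta and BMP receptors, had 606, 481 and 489 against 631, 646 and 737 normalized counts. Its siNT library 1 lay close to the siPHF19 libraries, and the log2 fold change was 0.36 ± 0.12 (SE) in the authors' deposited table (DESeq2 adjusted p = 0.0191). The BAMBI call was lost without siNT library 2 or 3 or siPHF19 library 2 or 3 (DESeq2 adjusted p from 0.0512 to 0.191). In BoM-1833 BAMBI had 137, 119 and 128 against 123, 139 and 196 normalized counts, which overlapped, and ID2 had at most 4.81 and was not tested. ID1 and ID3, relatives of ID2, were called in neither line, with log2 fold changes from -0.20 to 0.31 over both lines in the authors' deposited tables. ID4, the remaining relative, had 52.9 to 85.4 normalized counts in BoM-1833 and was not called there. Of ID4 0 reads were counted in the 6 MDA-MB-436 libraries, which allows up to 3 reads in all, or 0.0264 reads per M.

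**Figure D3:**
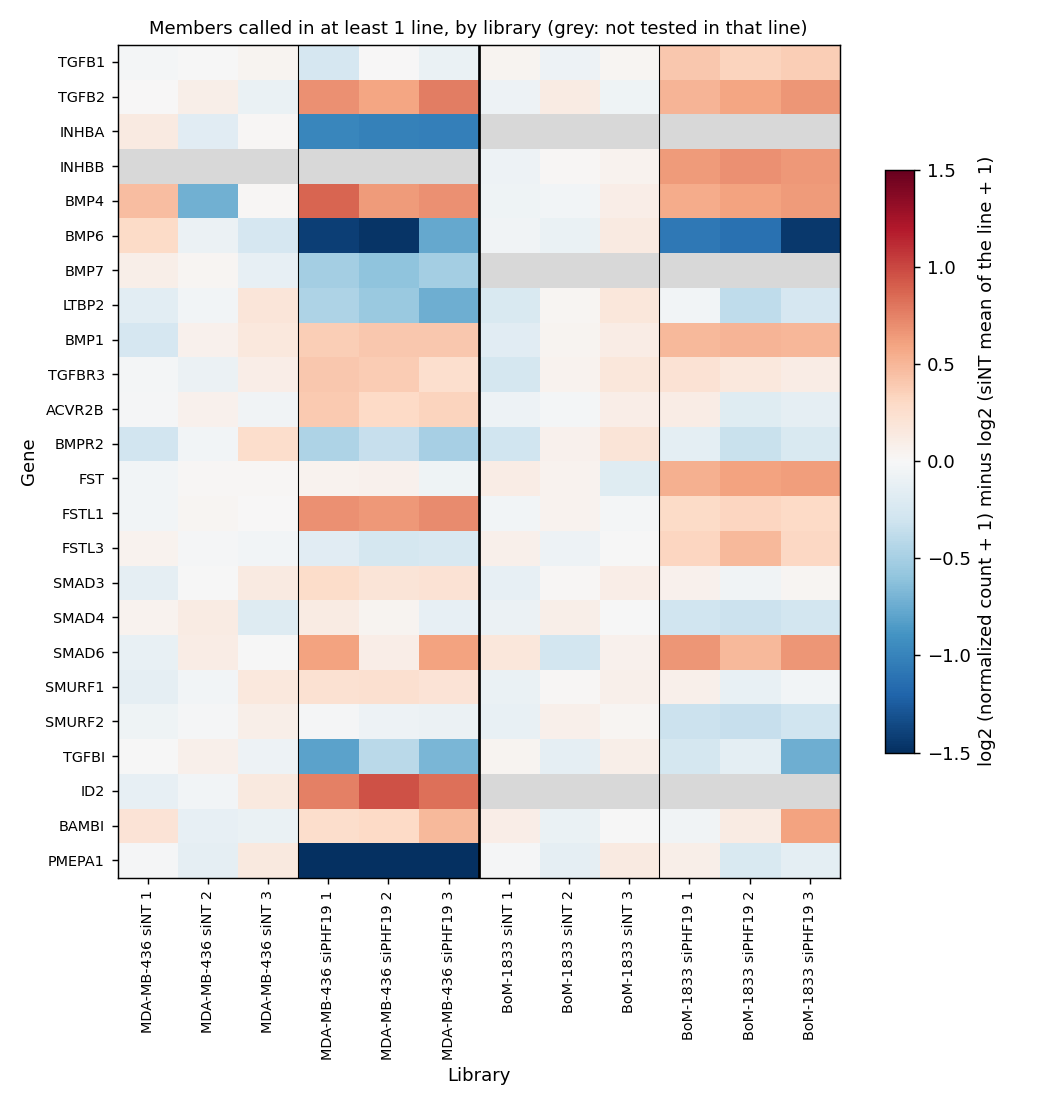
Each of the 24 genes called in at least 1 line (rows) in the 12 libraries (columns), as log2 of the normalized count plus 1 minus log2 of the siNT mean of its line plus 1, from blue (lower) to red (higher), limited to 1.5 either way. PMEPA1 and INHBA are blue in all 3 siPHF19 libraries of MDA-MB-436, and TGFB2, BMP1 and FSTL1 are red in all 6 siPHF19 libraries.

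Several ligands and antagonists had nearly all their reads in 1 of the lines. Levels between genes are given in reads per kilobase of exon per M reads (RPKM), from the recovered reads and GENCODE v29 exon lengths, as siNT mean and SD of 3 libraries. In MDA-MB-436 FSTL1 had the highest level of the 46, 99.95 ± 3.76 (SD, n = 3) RPKM, followed by TGFBR2 with 35.2 ± 6.23 (SD, n = 3). In BoM-1833 TGFBR2 was the highest with 155 ± 16.9 (SD, n = 3) RPKM, followed by TGFB1 with 50.2 ± 1.56 (SD, n = 3) and SMURF2 with 44.6 ± 3.38 (SD, n = 3), whose SDs leave TGFB1 and SMURF2 close. BMP4 was at 33.2 ± 1.92 (SD, n = 3) RPKM in BoM-1833 and at 0.187 ± 0.0757 (SD, n = 3) in MDA-MB-436. NOG, its antagonist, was at 40.5 ± 4.30 (SD, n = 3) and 0.0769 ± 0.024 (SD, n = 3) RPKM in the same order, and INHBB at 31.1 ± 1.58 (SD, n = 3) and 0.024 ± 0.015 (SD, n = 3). The opposite held for GREM1, at 10.4 ± 0.479 (SD, n = 3) RPKM in MDA-MB-436 and 0 RPKM in BoM-1833 siNT libraries. SMAD4 was at 0.525 ± 0.0586 (SD, n = 3) RPKM in MDA-MB-436 cells and 4.76 ± 0.325 (SD, n = 3) in BoM-1833 cells. Levels between lines were not tested, because the tables were normalized separately and each line is a single line.

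**Figure D4:**
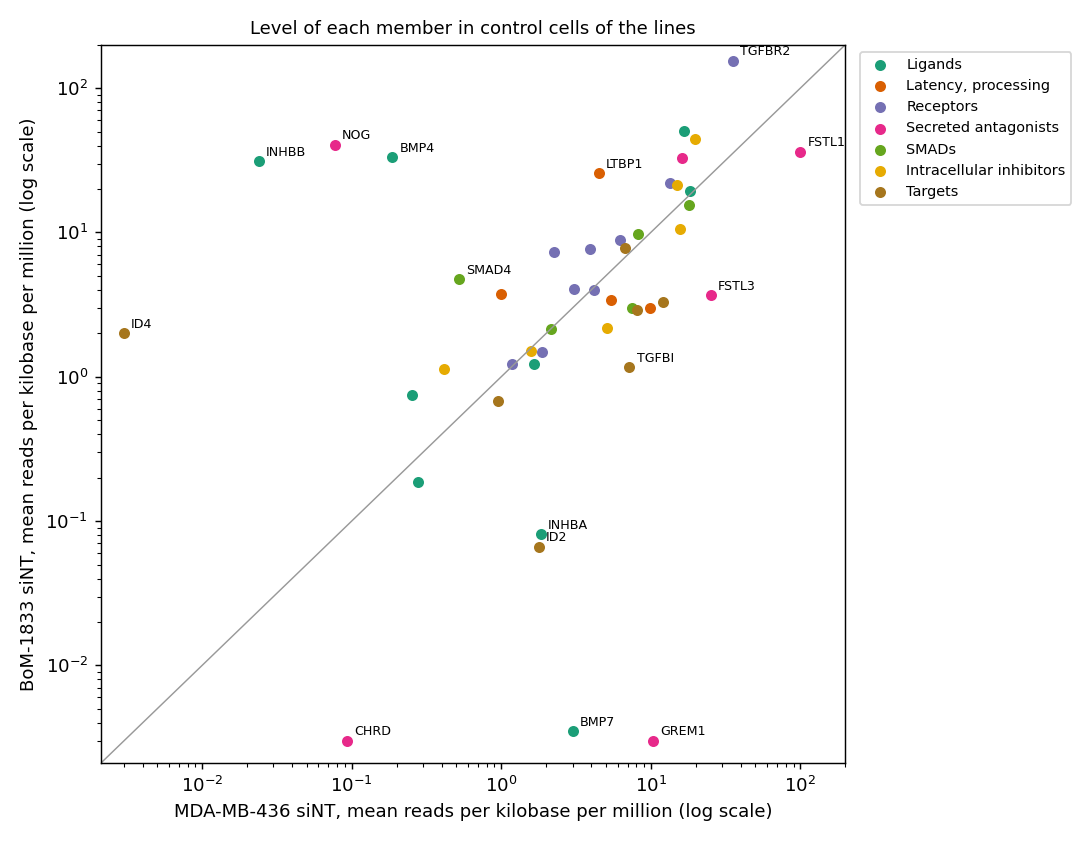
Mean siNT level of each of the 46 genes in MDA-MB-436 (horizontal, log scale) and BoM-1833 (vertical, log scale), in reads per kilobase of exon per M reads, coloured by role, with means under 0.003 drawn at 0.003. INHBB, NOG, BMP4 and ID4 lie far above the line of equal levels, and GREM1, BMP7, INHBA and ID2 far below it.

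Short stretches of the PMEPA1 3′ UTR are shown because this gene had the largest change of the 46 in MDA-MB-436 and was not called in BoM-1833. Each is 22 bases long around AAACTG (capitals), a hexamer taken from an earlier analysis of these data, in GENCODE v29 on GRCh38, 5′ to 3′, in order along the UTR.
PMEPA1 site 1: gataagagAAACTGtatgtgcg
PMEPA1 site 2: atgaaaatAAACTGttaccgaa
PMEPA1 site 3: cttgagccAAACTGtttgggtc
PMEPA1 site 4: ttttctggAAACTGcttgaaat
PMEPA1 site 5: gcctgaagAAACTGcttgttgt
FSTL1, which rose in both lines, has 5 copies, SMAD4 7, BMPR2 4, and SMURF2 and TGFBI, which fell, 0. In MDA-MB-436 it was in the 3′ UTR of 5 of 9 genes called higher, 5 of 7 called lower and 15 of 27 not called, against 45.3%, 51.4% and 41.7% of all genes tested with those calls. In BoM-1833 it was in 4 of 8, 2 of 3 and 17 of 30, against 36.9%, 62.9% and 42.9%. Longer UTRs hold more hexamers, and these shares were not adjusted for length. In the same order, median 3′ UTRs of the 46 genes had 3257, 2714 and 1191 bases in MDA-MB-436, against 1727, 1022 and 1084.5 in all genes. In BoM-1833 they had 1207, 1079 and 2624.5, against 1274, 1585 and 1112. Because the hexamer was taken from these same data, its shares among genes called higher, lower and not called are no independent evidence. These counts describe letters in annotated UTRs, and the part of such sites in any change was not tested.

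Beyond the 46 genes, 117 other genes of the pathway were looked up, all of which were found. In MDA-MB-436 81 were tested and 12 were called higher and 16 lower, 34.6% in all against the 22.1% of all genes. Without siNT library 3 the numbers turned to 20 higher and 13 lower, and the higher genes fell to 8 without siPHF19 library 1 or 2. In BoM-1833 66 were tested and 5 were called higher and 7 lower, 18.2% against 10.9%, and the lower genes numbered 4 without siNT library 2 or siPHF19 library 2 and 10 without siNT library 1. BMP5, a BMP ligand, was among the other ligands called higher in MDA-MB-436. It had 263, 304 and 344 normalized counts in siNT and 553, 589 and 599 in siPHF19 libraries, without overlap, with a log2 fold change of 0.94 ± 0.12 (SE) in the authors' deposited table (DESeq2 adjusted p = 9.16e-13), and at most 9.61 in BoM-1833, where it was not tested. By role, 11 of 21 other TGF-beta target genes tested (52.4%) were called in MDA-MB-436, 7 higher and 4 lower, against 22.1% of all genes. In BoM-1833 6 of 18 (33.3%) were called, 3 higher and 3 lower, against 10.9%. Of the other receptors and co-receptors 0 of 5 were called in MDA-MB-436 and 0 of 4 in BoM-1833 by DESeq2, where an unadjusted p was under 0.05 in 1, NEO1, and 0 and edgeR and limma called 1 and 0.

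Calls of the same sign in both lines were made for 5 of these genes, among 65 tested in both. This lies near the 5.67% of all genes called in both lines with the same sign. TAGLN, a smooth muscle actin-binding protein induced by TGF-beta, rose by log2 fold changes of 1.10 ± 0.16 (SE) in MDA-MB-436 cells and 1.00 ± 0.25 (SE) in BoM-1833 cells in the authors' deposited tables. COL1A1, a chain of type I collagen, rose by 0.61 ± 0.21 (SE) and 0.63 ± 0.11 (SE), and THBS1, or thrombospondin, which can activate latent TGF-beta, by 0.61 ± 0.11 (SE) and 0.40 ± 0.066 (SE) in the authors' deposited tables. FKBP1A, which binds type I receptors and holds them inactive, fell in both, with log2 fold changes of -0.54 ± 0.065 (SE) and -0.38 ± 0.055 (SE) in the authors' deposited tables. HMGA2, a chromatin protein induced by TGF-beta, fell in both, with -0.78 ± 0.12 (SE) and -0.25 ± 0.084 (SE) in the authors' deposited tables. The fall of HMGA2 differed between lines by -0.52 (z test, adjusted p = 0.00939). That difference was lost without siNT library 1 or siPHF19 library 1, 2 or 3 of MDA-MB-436 or siPHF19 library 3 of BoM-1833 (z test, adjusted p from 0.0533 to 0.0808). The COL1A1 call in MDA-MB-436 was lost when any library other than siNT library 1 was left out (DESeq2 adjusted p from 0.0702 to 0.155). The HMGA2 call in BoM-1833 was lost without siNT library 2 or siPHF19 library 1 or 2 (from 0.197 to 0.267).

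Of 65 other pathway genes tested in both lines, 12 differed between them in the z test, against the 4.89% of all genes. IL11, a cytokine induced by TGF-beta in bone metastasis models, fell in MDA-MB-436, from 343, 347 and 339.98 normalized counts in siNT to 129, 128 and 162 in siPHF19 libraries. In BoM-1833 it had 2358, 2153 and 2316 against 2339, 2346 and 2559.9, which overlapped, and the difference of the log2 fold changes was -1.39 (z test, adjusted p = 1.24e-14). CCN2, a matricellular target gene, moved in opposite directions. It had 703, 862 and 898 against 1169.8, 1111 and 1219.8 normalized counts in MDA-MB-436, all higher after siPHF19. In BoM-1833 it had 10588, 10102 and 9257 against 6521, 7338 and 7062, all lower, and the difference was 1.02 (z test, adjusted p = 2.68e-13).

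NEDD4L, a ubiquitin ligase that acts on activated SMAD2 and SMAD3, was also called in opposite directions by the deposited tests, with log2 fold changes of 0.20 ± 0.077 (SE) in MDA-MB-436 cells and -0.47 ± 0.056 (SE) in BoM-1833 cells in the authors' deposited tables and a difference of 0.68 (z test, adjusted p = 7.13e-10). Its MDA-MB-436 call was lost with all libraries under edgeR (adjusted p = 0.0516), limma (adjusted p = 0.0508) and DESeq2 without independent filtering (adjusted p = 0.0546), and in DESeq2 without siNT library 2 or siPHF19 library 1, 2 or 3 (DESeq2 adjusted p from 0.164 to 0.307). SNAI2, a transcription factor of epithelial-mesenchymal change, fell in MDA-MB-436, with 75.3, 88.4 and 73.4 against 17.4, 26.5 and 13.7 normalized counts, and differed between lines by -1.89 (z test, adjusted p = 6.03e-06). ITGB8, the integrin subunit that activates latent TGF-beta, fell in MDA-MB-436 with a log2 fold change of -0.82 ± 0.14 (SE) in the authors' deposited table and differed by -0.95 (z test, adjusted p = 0.000677).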

How the data were processed

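RNA of 2 cell lines was sequenced as 12 stranded mRNA libraries, per the labels' protocols. For each line the authors deposited 1 table from DESeq2. Values per library are a signal, namely normalized counts (reads divided by a size factor), per the file headers. The deposited log2 fold changes, their p-values before and after adjustment, and the Wald statistic (a score) come from the authors. STAR, RSEM 1.3.1, DESeq2 1.46.0 and hg38 are named in the submitters' processing notes, without their roles. The annotation, and whether counting was strand-specific, are not given in the sources used here, so reads from genes on opposite strands, as at PMEPA1, INHBA, BMP7, ID2, ACVR2B, SMURF1 and TGFB1, cannot be told apart.

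All library values were whole multiples of 1 step within 0.01, so whole reads (100% of values) were recovered, 13.7 to 24.0 M per library. DESeq2 1.42.0 on these reads gave the same 3143 and 1411 calls as the deposited tables. A gene was called at a deposited adjusted p under 0.05. Lines were compared gene by gene with a z test, dividing the difference of log2 fold changes by its standard error, adjusted by Benjamini-Hochberg over 12290 genes. Alternatives were edgeR 4.0.16 (TMM), limma 3.58.1 on log2 of the normalized count plus 1 or 0.5, DESeq2 without its filter or with a replicate block, a mean count of at least 10, stricter thresholds, leaving out each library and, between lines, an interaction term in DESeq2 and edgeR fits over all 12 libraries. For the other pathway genes these were added after seeing the data. The scripts were tested on simulated data. Between replicates, chi-square per degree of freedom was 2.29 to 24.1, above the 1 of sampling noise, so no library was a copy of another. The labels name no batch.

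The members and lists were chosen with earlier results of these data known. Members called in a line or differing between lines are named with values in every library. Of the other pathway genes those named, some by log2 fold change alone, are up to 8 called in both lines and up to 6 that differ most between them. Values of some genes that entered the counts are not reported here. KRT8, CD68, BMP5, NEO1 and the genes named for their motif copies were chosen after their values were seen.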

Additional observations from a re-analysis of the deposited data

Results flagged for a closer look

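For 5 genes the log2 fold change of siPHF19 over siNT differed between the lines in the z test with adjustment over 12290 genes. Given as MDA-MB-436 minus BoM-1833, the difference was -0.48 for TGFB1 and -0.57 for FST, which rose in BoM-1833. FSTL1 differed by 0.38 and rose in both lines. FSTL3 differed by -0.60 and PMEPA1 by -1.51, and both fell in MDA-MB-436. No group has more than 3 libraries, so single libraries were not tested for standing apart within their group.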

How the results depend on the processing

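Of the 27 fold changes called among the 46 genes, 16 stayed at an adjusted p under 0.05 under every alternative test, filter and block and with each library left out, and 11 lost the call under at least 1. Stricter thresholds are counted apart. Of 57 not called, 4 were called under at least 1, and 0 reversed direction. The 16 genes called in MDA-MB-436 became 8 with an absolute log2 fold change of at least 0.5, 10 at an adjusted p under 0.01, and 9 to 14 with each library left out. Of all genes 7.97%, 14.6% and 12.9% to 26.9% were called there under these settings. The 11 in BoM-1833 became 7 at the fold threshold and 8 to 11 with each library left out, against 3.04% and 5.99% to 17.0% of all genes. Other pathway genes called fell from 28 to 17 and from 12 to 5 at the fold threshold, with 19 to 33 and 8 to 14 when libraries were left out. The shares of all genes just given are the background for these counts too. Genes that differed between lines numbered 4 to 7 of the 46 and 6 to 17 of the others when libraries were left out, against 2.48% to 8.61% of all genes. The others numbered 7, 6 and 7 without siNT 2, siPHF19 1 and siPHF19 3 of MDA-MB-436. The cause of these shifts was not tested, beyond the smaller number of libraries or the stricter threshold itself.

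Replicate numbers did not pair the libraries: correlations of deviations between libraries of the same number were -0.23, 0.039 and -0.27 in MDA-MB-436 and -0.31, -0.12 and -0.20 in BoM-1833, and no library correlated best with its own number except siNT 2 and siPHF19 2 of MDA-MB-436. With the replicate block 9 of the 46 genes were called in MDA-MB-436 cells and 9 in BoM-1833 cells, against 11.9% and 5.00% of all genes. With it 2 of the 46 differed between lines (FST and PMEPA1) and 5 of the other pathway genes, against 1.63% of all genes. Depth limits genes of few reads, such as BMP6, TGFB3 and CHRD.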
